A study of Mus musculus with 4 samples.

Results

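A set of 10 genes known for expression that is largely restricted to stem cells of the early embryo and germ line were followed on all arrays: Dppa2, Dppa3, Dppa4, Dppa5a, Fbxo15, Mageb16, Tcl1, Eras, Utf1 and L1td1. All 10 were found by symbol among 17097 named genes, with 11 probe sets among 45037, since Dppa2 had 2 probe sets and each of the others had 1. The genes were selected on known expression and with earlier results of the same 4 arrays in view, among them the KO minus F/F and Flk1+ minus Flk1- differences, so these are described here without a test. Expression was measured on Affymetrix arrays in mouse embryonic stem cells that had been differentiated as embryoid bodies, which are aggregates grown first in hanging drops and then in suspension. The aggregates were taken apart on day 4 and the cells sorted by Flk1, the VEGF receptor encoded by Kdr, which marks mesoderm with hematopoietic and endothelial potential. The 4 groups were Snai1 knockout (KO) Flk1+ cells, control (F/F) Flk1+ cells, KO Flk1- cells and F/F Flk1- cells, with 1 array each and therefore no spread between replicates. The KO Flk1- sample carried day 4 in its description and day 5 in its source name. For every array cDNA was amplified from 50 ng of RNA. The labels do not say how the knockout line was made or whether each line is 1 clone.

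The proteins encoded by these genes have different tasks. Dppa2 and Dppa4 are chromatin proteins with a SAP domain that act as a pair at bivalent promoters, and Utf1 is a chromatin-associated protein that acts at polycomb-bound genes. Dppa3, also called Stella, protects maternal DNA methylation in the zygote and binds the methylation cofactor Uhrf1. Dppa5a is an RNA-binding protein with a KH domain, and L1td1 is an RNA-binding protein derived from a LINE-1 open reading frame. Eras is a Ras-like GTPase that is active without a stimulus and signals through PI3 kinase, and Tcl1 is a coactivator of the Akt kinases. Fbxo15 is an F-box protein whose locus has served as a reporter in reprogramming, and Mageb16 is a member of the X-linked MAGE family.

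Values are log2 expression values, in which a difference of 1 is 2-fold, and all differences are given as KO minus F/F or as Flk1+ minus Flk1-. A value counted as signal above a floor of 3.19, the 40th percentile of all genes over all arrays, and 10955 genes exceeded it on at least 1 array. Where the lower of both values was under the floor, the fold was taken against the floor and is a lower bound. Probe sets differ in their response, so levels of different genes are not compared. Among 6142 genes that stayed below the floor throughout, the SD of the differences was 0.17 to 0.20 over the 4 comparisons, which describes scatter near background and not between cultures. Kdr was at 9.03 in KO Flk1+ and 8.92 in F/F Flk1+ cells, and at 3.88 in KO Flk1- and 4.55 in F/F Flk1- cells, so the sort labels stood apart in both genotypes. The Snai1 probe set was below the floor on every array, at 1.88 to 2.56, and could not check the genotype. Gapdh control probe sets at the 3' end exceeded those at the 5' end, a gap that follows RNA integrity and amplification, by 1.47 in KO Flk1+ and 2.05 in F/F Flk1+ cells, and 1.99 in KO Flk1- and 1.76 in F/F Flk1- cells, and its part in the results was not tested.

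The RefSeq promoter table for GRCm38.p6 held 5 of the 10 genes, and the windows of the 4 that had signal on the arrays are shown as the start regions of genes whose values follow. Each window runs from 250 bases before to 50 bases after the annotated start, 5' to 3' along the gene. They lie at chrX:7928558-7928857 (- strand) for Eras, chrX:79671386-79671685 (- strand) for Mageb16, chr7:139943606-139943905 (+ strand) for Utf1 and chr4:98726504-98726803 (+ strand) for L1td1. Capitals mark exact matches, on either strand, to the E-box that Snail factors are known to bind (CAGGTG), the octamer (ATGCAAAT), a Sox core (CATTGT) and an Esrrb site (TGACCTT), and no matches overlapped.
Eras promoter window: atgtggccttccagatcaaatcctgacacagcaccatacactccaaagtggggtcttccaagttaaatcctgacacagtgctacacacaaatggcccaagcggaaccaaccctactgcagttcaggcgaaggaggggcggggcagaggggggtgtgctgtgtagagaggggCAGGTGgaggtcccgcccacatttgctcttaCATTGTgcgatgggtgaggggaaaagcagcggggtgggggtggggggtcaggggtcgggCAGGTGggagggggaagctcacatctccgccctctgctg
Mageb16 promoter window: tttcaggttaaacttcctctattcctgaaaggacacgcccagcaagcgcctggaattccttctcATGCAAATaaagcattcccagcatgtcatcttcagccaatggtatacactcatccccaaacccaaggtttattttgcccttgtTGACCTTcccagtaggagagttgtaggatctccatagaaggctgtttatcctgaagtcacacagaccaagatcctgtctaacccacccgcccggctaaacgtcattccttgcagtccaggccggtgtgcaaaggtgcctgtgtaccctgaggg
Utf1 promoter window: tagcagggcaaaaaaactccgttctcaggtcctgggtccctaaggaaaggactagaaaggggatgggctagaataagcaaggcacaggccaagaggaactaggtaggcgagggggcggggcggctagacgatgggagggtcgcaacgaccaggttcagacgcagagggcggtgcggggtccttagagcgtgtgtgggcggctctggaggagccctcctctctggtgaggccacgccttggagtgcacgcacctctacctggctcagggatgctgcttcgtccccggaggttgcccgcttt
L1td1 promoter window: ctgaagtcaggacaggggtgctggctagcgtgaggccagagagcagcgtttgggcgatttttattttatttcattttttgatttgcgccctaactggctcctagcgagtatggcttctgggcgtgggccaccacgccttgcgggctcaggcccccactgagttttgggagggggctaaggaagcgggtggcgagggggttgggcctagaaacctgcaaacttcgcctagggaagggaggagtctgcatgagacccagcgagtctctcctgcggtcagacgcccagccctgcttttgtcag
Eras held 2 copies of the E-box, starting at -79 and 12 relative to the start site, and a Sox core at -48. Mageb16 held an octamer at -186 and an Esrrb site at -103, and neither Utf1 nor L1td1 held any of the 4 strings in this window. The window of Tcl1, which had no signal on the arrays and is not shown, held the E-box at -21, so 2 of the 5 windows held it. Of all 32851 windows in the table, 20.2% held the E-box, 12.6% the Sox core, 4.72% the Esrrb site and 1.74% the octamer. CpG dinucleotides numbered 17 in Utf1, 14 in L1td1, 8 in Eras and 6 in Mageb16, against a median of 7 over all windows. These letters are a description of the windows and do not show that a factor binds there.

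All 9 genes above the floor on at least 1 array were highest in KO Flk1- cells, followed by F/F Flk1- cells and then by both Flk1+ fractions. For the 7 with signal in KO Flk1+ cells the F/F Flk1+ value was the lowest, while for Fbxo15 and Mageb16 both Flk1+ values were below the floor and have no order. By the deposited values all 9 had the order KO Flk1-, F/F Flk1-, KO Flk1+ and F/F Flk1+, as did 9.54% of all 10955 genes. Tcl1 was the exception in signal. It was below the floor on all 4 arrays, at 2.32 in KO Flk1+, 2.04 in F/F Flk1+, 2.71 in KO Flk1- and 2.21 in F/F Flk1- cells, and has no order to compare. In KO Flk1+ cells 7 of the 10 genes were above the floor and in F/F Flk1+ cells 5 were, while 9 were above it in each Flk1- fraction. In bulk RNA, fewer cells that express a gene and less RNA per cell cannot be told apart.

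**Figure D1:**
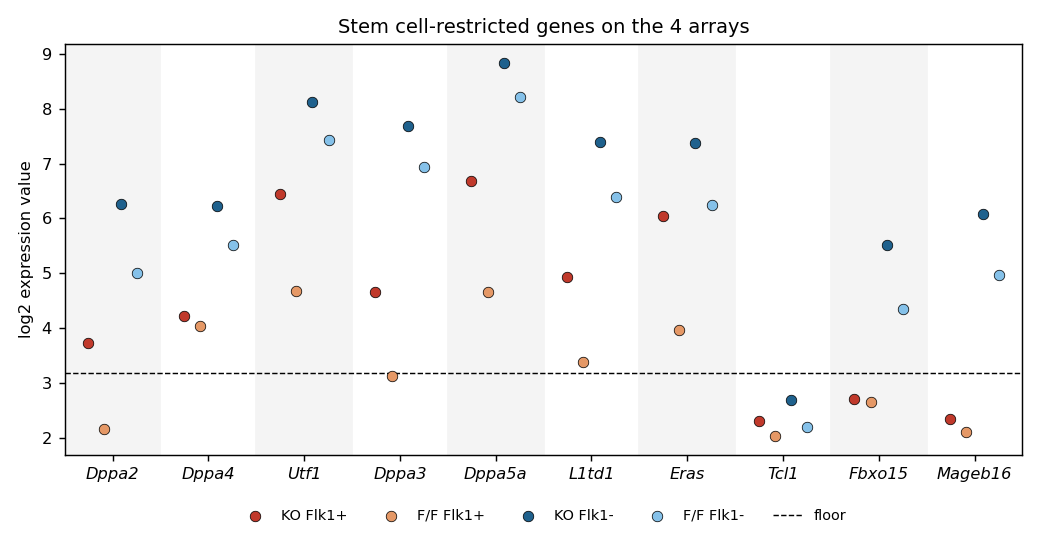
Log2 expression value of the highest probe set of each gene (y axis) on the 4 arrays, 1 point per array, with the floor of 3.19 as a dashed line. Dark blue (KO Flk1-) lies above light blue (F/F Flk1-) for every gene, and Tcl1 lies below the floor throughout.

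Among the chromatin proteins, Utf1 was at 6.45 in KO Flk1+ and 4.67 in F/F Flk1+ cells, and at 8.12 in KO Flk1- and 7.43 in F/F Flk1- cells. Its genotype difference was 1.77 in Flk1+ and 0.69 in Flk1- cells, a 3.41-fold and a 1.61-fold difference. Dppa2, by its higher probe set, was at 3.74 in KO Flk1+ and 2.18 in F/F Flk1+ cells, and at 6.27 in KO Flk1- and 5.01 in F/F Flk1- cells. The value in F/F Flk1+ cells was below the floor, so KO Flk1+ cells were at least 1.46-fold higher, and KO Flk1- cells were 2.40-fold higher. The second Dppa2 probe set was below the floor on all arrays, at 1.38 in KO Flk1+, 1.26 in F/F Flk1+, 2.09 in KO Flk1- and 1.64 in F/F Flk1- cells, in the same order but with no fold to give. The probe set used for Dppa2 is of the _s_at type, which can match more than 1 transcript. Dppa4, the partner of Dppa2 and its direct neighbour in the RefSeq gene table, was at 4.23 in KO Flk1+ and 4.04 in F/F Flk1+ cells, and at 6.23 in KO Flk1- and 5.52 in F/F Flk1- cells. Its genotype difference was 0.19 in Flk1+ cells, close to the scatter of genes near background, and 0.71 in Flk1- cells. How alike Dppa2 and Dppa4 were over the 4 arrays depended on the F/F Flk1+ value of Dppa2, which had no signal. The root mean square distance between both genes, after each gene's mean was removed, was 0.71 as deposited and 0.32 with low values raised to the floor.

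Dppa3 was at 4.66 in KO Flk1+ and 3.14 in F/F Flk1+ cells, and at 7.68 in KO Flk1- and 6.94 in F/F Flk1- cells. The F/F Flk1+ value lay just under the floor, so the KO value was at least 2.77-fold higher in Flk1+ cells, and it was 1.67-fold higher in Flk1- cells. Of the listed genes with signal, Dppa3 had the widest range over the 4 arrays, 4.54 on the log2 scale with the F/F Flk1+ value taken as deposited.

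Both RNA-binding proteins were above the floor on all 4 arrays and higher in the KO in both fractions. Dppa5a was at 6.68 in KO Flk1+ and 4.67 in F/F Flk1+ cells, and at 8.84 in KO Flk1- and 8.21 in F/F Flk1- cells. This was a 4.04-fold difference in Flk1+ and a 1.54-fold difference in Flk1- cells. L1td1 was at 4.93 in KO Flk1+ and 3.38 in F/F Flk1+ cells, and at 7.39 in KO Flk1- and 6.40 in F/F Flk1- cells. The F/F Flk1+ value lay only just above the floor of 3.19. The 2.93-fold difference of L1td1 in Flk1+ cells stood beside a 1.99-fold difference in Flk1- cells, just under the 2-fold rule.

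Of the signalling genes, Eras was at 6.05 in KO Flk1+ and 3.97 in F/F Flk1+ cells, and at 7.37 in KO Flk1- and 6.25 in F/F Flk1- cells. KO cells were 4.22-fold higher in the Flk1+ and 2.17-fold higher in the Flk1- fraction, and the KO Flk1+ value lay just under the F/F Flk1- value. Eras was read by 1 probe set of the _x_at type, which can cross-hybridise. Tcl1, the other activator of the Akt pathway, had no signal to compare.

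Fbxo15 and Mageb16 had signal in Flk1- cells and were below the floor in Flk1+ cells of both genotypes. Fbxo15 was at 2.71 in KO Flk1+ and 2.67 in F/F Flk1+ cells, and at 5.51 in KO Flk1- and 4.36 in F/F Flk1- cells. Mageb16 was at 2.35 in KO Flk1+ and 2.11 in F/F Flk1+ cells, and at 6.07 in KO Flk1- and 4.98 in F/F Flk1- cells. The KO was 2.22-fold higher for Fbxo15 and 2.14-fold higher for Mageb16 in Flk1- cells, while no genotype fold can be given in Flk1+ cells.

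Read as a comparison of KO with F/F in Flk1+ cells, 6 of the 7 genes above the floor there were 2-fold or more higher and 0 were lower, against 0.873% of 10655 genes higher and 0.976% lower. One of the 6, Dppa2, reached 2-fold only through a value below the floor, and Fbxo15, Mageb16 and Tcl1 had no signal in this fraction. The median difference over the 7 genes was 1.57, against -0.05 over all genes tested. The median over all 10 genes, with low values raised to the floor, was 1.01. In Flk1- cells 4 of 9 genes, Dppa2, Fbxo15, Eras and Mageb16, were 2-fold or more higher and 0 were lower, against 0.389% of 10533 genes higher and 0.949% lower. The median was 0.99 over the 9 genes (0.87 over all 10 at the floor), against 0.04 over all genes. Dppa2 and Eras were 2-fold or more higher in both fractions, as were 0.156% of 10233 genes. Since these differences helped to choose the genes, nothing is read from the gap to all genes.

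**Figure D2:**
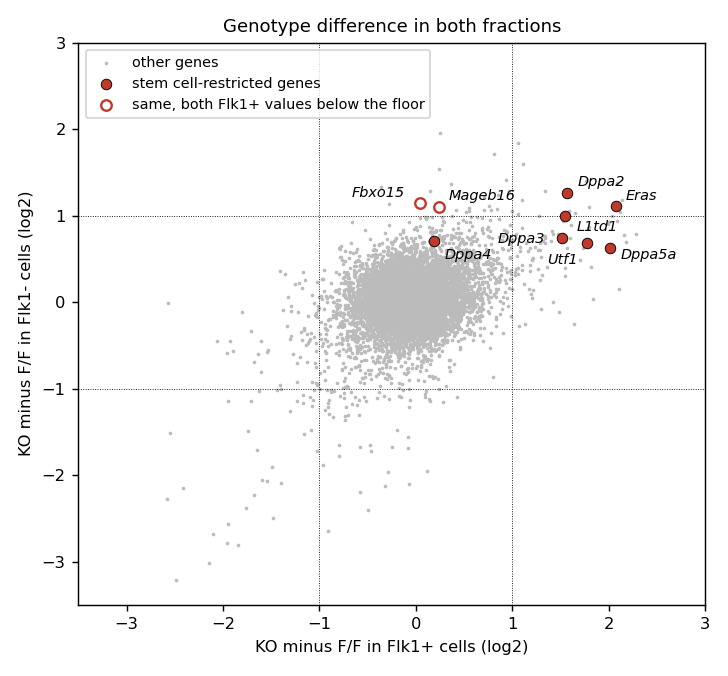
KO minus F/F difference (log2) in Flk1+ cells (x axis) and in Flk1- cells (y axis) for genes above the floor on at least 1 array, 1 point per gene, with dotted lines at 2-fold and 6 of 10946 other genes beyond the axes. The listed genes lie to the upper right, except Dppa4, Fbxo15 and Mageb16, which lie near 0 on the x axis; open points had both Flk1+ values below the floor.

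The median sort differences were larger in size than the median genotype differences, but the genes were chosen with both in view. The medians also cover unlike sets, 9 genes for the sort and 7 for the genotype in Flk1+ cells. Of the genes with signal in KO Flk1+ cells, only Eras and Utf1 had a genotype difference there (2.08 and 1.77) larger in size than their sort difference in KO cells (-1.32 and -1.68). In KO cells all 9 genes with signal were 2-fold or more lower in the Flk1+ than in the Flk1- fraction and 0 were higher, against 2.17% of 10688 genes lower and 1.62% higher, with a median difference of -2.46 and a range of -3.72 to -1.32. In F/F cells the same 9 were 2-fold or more lower and 0 were higher, against 1.51% of 10622 genes lower and 1.20% higher, with a median of -2.84 and a range of -3.80 to -1.48. Counted over both genotypes together, 0.782% of 10355 genes were 2-fold or more lower. With low values raised to the floor, Dppa3 (8.13-fold lower in Flk1+ cells) had the lowest sort difference of all genes tested in KO cells, where Mageb16 was at least 7.37-fold and Fbxo15 at least 4.98-fold lower. In F/F cells Dppa3 was at least 13.5-fold lower and Dppa5a 11.6-fold lower, and Dppa5a ranked 6 from the lowest at the floor. Eras in KO cells had the smallest sort difference of the set, 2.49-fold lower in Flk1+ cells, against 4.84-fold lower in F/F cells. Fbxo15 and Mageb16 in both genotypes, and Dppa2 and Dppa3 in F/F cells, passed the floor only through their Flk1- values. Their direction in the sort was therefore fixed by the floor. Sort differences also helped to choose the genes, so nothing is read from the ranks or from the gap to all genes.

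**Figure D3:**
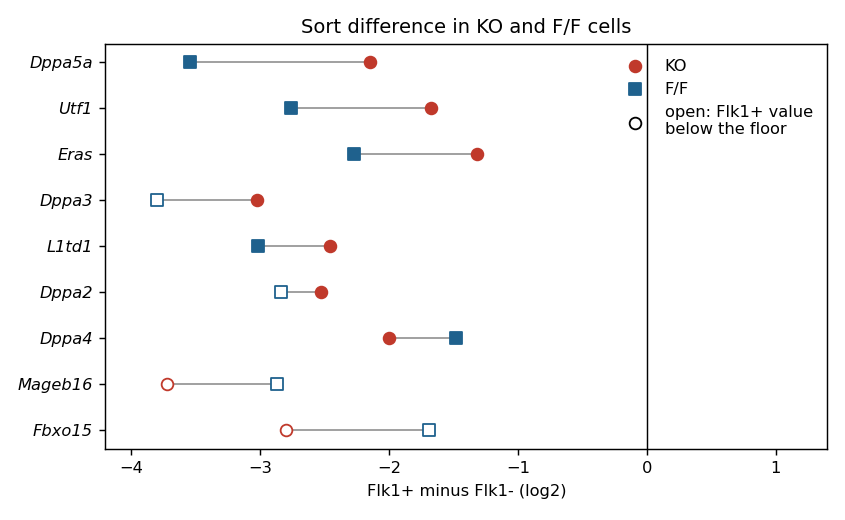
Flk1+ minus Flk1- difference (log2, x axis) of each gene with signal in KO cells (red circles) and F/F cells (blue squares), joined by a line, with open symbols where the Flk1+ value was below the floor. Every point lies below -1, and Dppa4, Mageb16 and Fbxo15 have the KO point further from 0 than the F/F point.

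The set was divided by the difference of differences, which is KO minus F/F in the Flk1+ fraction minus KO minus F/F in the Flk1- fraction. It was positive for 6 of the 9 genes with signal and negative for 3, with a median of 0.56, against -0.07 over all 10955 genes. Dppa5a (1.39) and Utf1 (1.08) were above 1, as were 0.749% of all genes, followed by Eras at 0.96, Dppa3 at 0.78 and L1td1 at 0.56. Of these 5, all but Dppa3 were above the floor on every array, and Dppa3 was at 0.73 once low values were raised to the floor. Dppa2 was at 0.31 as deposited and at -0.71 once raised to the floor, so its direction depended on a value without signal. Dppa4, above the floor on every array, was at -0.52. Fbxo15 was at -1.11 and Mageb16 at -0.85, with 0.831% of all genes at -1 or lower, but both had no signal in Flk1+ cells and a value there only repeats the difference in Flk1- cells with its sign turned.

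Likeness to other genes was measured as the root mean square distance between log2 values over the 4 arrays, after each gene's own mean was removed, among 10955 genes. The genes nearest to the median profile of the 9 listed genes were Mreg, which encodes melanoregulin, at 0.094, Rex2 at 0.17, Trap1a, a tumour rejection antigen gene, at 0.21, the pluripotency transcription factor gene Nanog at 0.24 and the cationic amino acid transporter gene Slc7a3 at 0.26. These places depended on low values. Once these were raised to the floor, the nearest were Rex2 at 0.15, Trap1a at 0.17, Mreg at 0.19, Sox2 at 0.26 and AU018091 at 0.29. Nanog and Slc7a3 were then no longer among them. Mreg was at 4.92 in KO Flk1+ and 3.34 in F/F Flk1+ cells, and at 7.05 in KO Flk1- and 6.04 in F/F Flk1- cells. Dppa2 was nearest to L1td1, at 0.098 as deposited, but at 0.46 with low values raised to the floor. The nearest genes were Sox2 for Dppa3 (0.22), Nanog for Dppa5a (0.16), Rex2 for L1td1 (0.063), Mreg for Utf1 (0.16) and the neuregulin receptor gene Erbb3 for Eras (0.15). For the 3 genes without a wide KO difference in Flk1+ cells they were the stress-response gene Gadd45a for Dppa4 (0.045), the germ cell transcription factor gene Tfap2c for Fbxo15 (0.078) and Trap1a for Mageb16 (0.37). With low values raised to the floor, the nearest gene stayed the same for Dppa3, Dppa5a, Eras and Utf1 and was another one for Dppa2, Dppa4, Fbxo15, Mageb16 and L1td1. No shared control is read from these distances over 4 arrays.

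**Figure D4:**
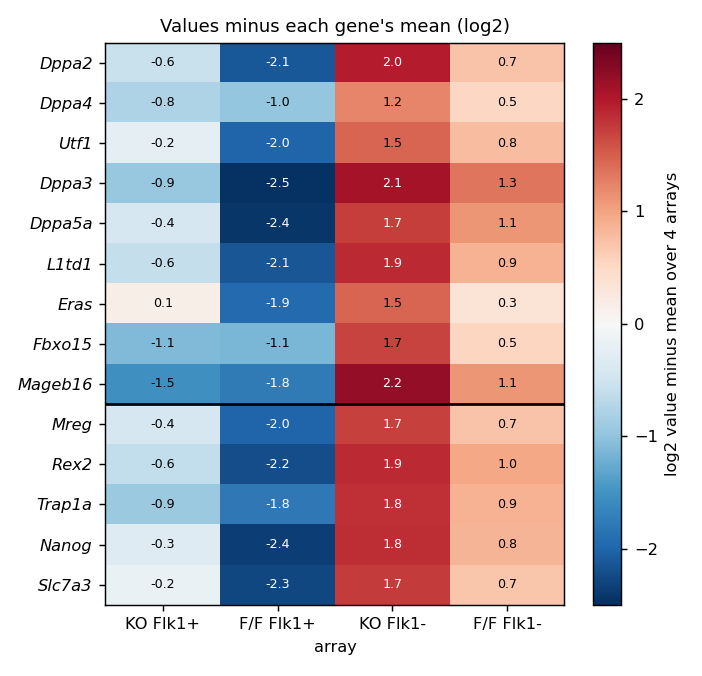
Log2 value minus the gene's mean over the 4 arrays (colour and printed value) for the 9 listed genes with signal (above the line) and the 5 genes nearest to their median profile by the deposited values (below the line), with the arrays in columns. Dppa4, Fbxo15 and Mageb16 are nearly as low in KO Flk1+ as in F/F Flk1+ cells, whereas the others are lower in F/F Flk1+ than in KO Flk1+ cells by the deposited values. The F/F Flk1+ values of Dppa2, Dppa3 and Rex2, and both Flk1+ values of Fbxo15 and Mageb16, were below the floor. At the floor the Dppa2 difference in Flk1+ cells was 0.55.

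Other genes of the same networks were taken from lists of known members, written with earlier results of these arrays known. Of 13 core pluripotency transcription factor genes, 8 were above the floor in Flk1+ cells, where the KO was 2-fold or more higher for 3 and lower for 1, with a median difference of 0.17. Nanog, at 5.41 in KO Flk1+ and 3.38 in F/F Flk1+ cells, Sox2, at 4.71 in KO Flk1+ and 2.71 in F/F Flk1+ cells, and Pou5f1, at 5.94 in KO Flk1+ and 4.86 in F/F Flk1+ cells and named here after its values were seen, were the higher ones. Tbx3, at 4.30 in KO Flk1+ and 5.91 in F/F Flk1+ cells, was the lower one. In Flk1- cells 2 of 12 were 2-fold or more higher and 0 lower, with a median of 0.57, and Esrrb was at 5.76 in KO Flk1- and 4.04 in F/F Flk1- cells. The second was the orphan receptor gene Nr0b1, also named after its values were seen, with a difference of 1.29. Of 35 other stem cell-restricted genes 25 were on the array. In Flk1+ cells 1 of 18 was 2-fold or more higher in the KO, Slc7a3 with a difference of 2.12, and the median was 0.18. In Flk1- cells 1 of 23 was, again Slc7a3 with 1.04, and the median was 0.43. Mkrn1, below the floor in both Flk1+ samples, had a difference of 0.98 in Flk1- cells, and Upp1, a uridine phosphorylase gene, had one of 0.73 in Flk1+ and 0.61 in Flk1- cells. In the sort, 8 of 22 of these genes in KO cells and 6 of 22 in F/F cells were 2-fold or more lower in the Flk1+ fraction and 0 were higher.

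In lists for the pathways in which the listed proteins work, which leave out the listed genes, no gene was 2-fold apart by genotype in either fraction. Over all genes 0.873% were higher and 0.976% lower in Flk1+ cells, and 0.389% higher and 0.949% lower in Flk1- cells. The lists are too short to differ from such low shares, so nothing is read from these counts. Of 16 PI3 kinase and Akt pathway genes with signal in Flk1+ cells, 6 were higher and 10 lower in the KO, with a median of -0.09, and the kinase subunit gene Pik3ca differed by -0.53 in Flk1+ and 0.16 in Flk1- cells. The 11 Ras GTPase genes other than Eras had a median of -0.04 in each fraction. The 9 genes of the Skp1-cullin-F-box complex, in which F-box proteins act, had medians of -0.21 in Flk1+ and 0.11 in Flk1- cells. The 9 genes of polycomb repressive complex 2 had medians of -0.01 in Flk1+ and 0.09 in Flk1- cells. The 6 DNA methylation genes with signal had medians of -0.22 in Flk1+ and 0.09 in Flk1- cells. They are a mixed list, with the maintenance genes Uhrf1 and Dnmt1 beside Dnmt3a, Dnmt3b, Tet2 and Tet3. The de novo methyltransferase gene Dnmt3b differed by 0.98 in Flk1+ and 0.51 in Flk1- cells.

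**Figure D5:**
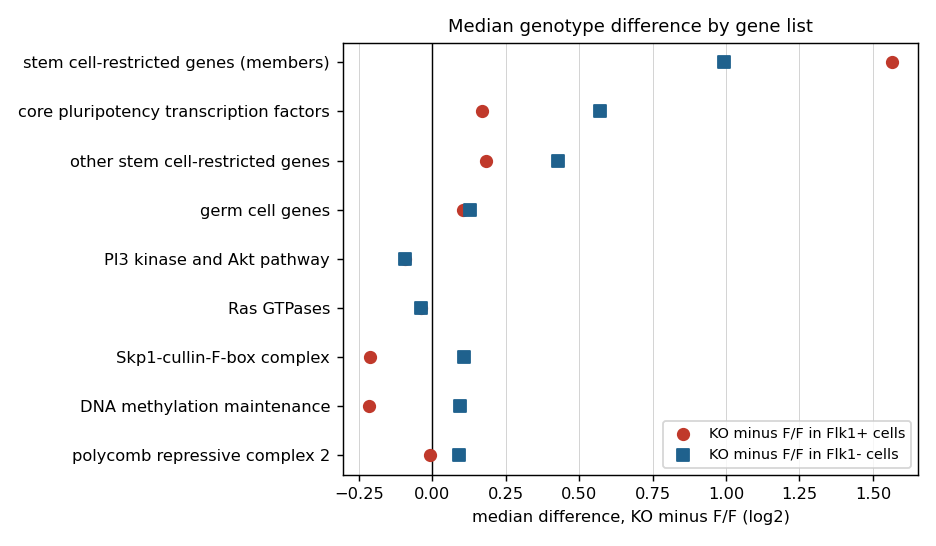
Median KO minus F/F difference (log2, x axis) over the genes with signal of each list, in Flk1+ cells (red circles) and Flk1- cells (blue squares). The listed stem cell-restricted genes, chosen with these values in view, lie at 1.57 and 0.99, and the pathway lists lie between -0.22 and 0.11. The list labelled DNA methylation maintenance also holds Dnmt3a, Dnmt3b and Tet genes.

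Of the marker lists of other cell types, some moved along with these differences and others did not. Of 8 primed epiblast markers on the array, 5 of the 7 with signal in Flk1+ cells and 1 of 7 in Flk1- cells were 2-fold or more higher in the KO, and the log2 of their summed linear level was 10.96 in KO Flk1+ and 9.74 in F/F Flk1+ cells, and 11.41 in KO Flk1- and 10.80 in F/F Flk1- cells. Of 12 cardiac and lateral plate markers, 5 of 10 in Flk1+ and 7 of 11 in Flk1- cells were 2-fold or more lower in the KO, with sums of 9.48 in KO Flk1+ and 10.74 in F/F Flk1+ cells, and of 9.02 in KO Flk1- and 10.51 in F/F Flk1- cells. Of 8 primitive erythroid markers, 3 of 6 in Flk1+ and 7 of 8 in Flk1- cells were 2-fold or more lower, with sums of 5.83 in KO Flk1+ and 7.31 in F/F Flk1+ cells, and of 5.86 in KO Flk1- and 11.5 in F/F Flk1- cells. Neither KO fraction had signal for Hbb-bh1, Hba-x or Hbb-y, the embryonic globin genes. Of 9 fibroblast markers, 4 of 5 in Flk1+ and 1 of 4 in Flk1- cells were 2-fold or more lower, with sums of 8.89 in KO Flk1+ and 9.65 in F/F Flk1+ cells, and of 8.14 in KO Flk1- and 8.73 in F/F Flk1- cells. Most of each sum was Fn1, at 8.70 in KO Flk1+, 9.26 in F/F Flk1+, 7.86 in KO Flk1- and 8.45 in F/F Flk1- cells. Col1a2, Thy1, Dcn and Lum were below the floor on all arrays. The 12 markers of Flk1+ mesoderm and hemato-endothelial cells, Kdr among them, had sums of 10.07 in KO Flk1+ and 10.16 in F/F Flk1+ cells, and of 6.72 in KO Flk1- and 7.15 in F/F Flk1- cells. Kdr, the sorted antigen, was the largest part of the sum in both Flk1+ samples. By genotype, 0 of 11 in Flk1+ cells were 2-fold apart. In Flk1- cells 1 of 6 was lower and 0 were higher in the KO. This was Lmo2, at 3.30 in KO Flk1- and 5.26 in F/F Flk1- cells. Of the nascent mesoderm markers, 0 of 6 in Flk1+ and 0 of 5 in Flk1- cells were 2-fold apart by genotype, in a list too short to differ from the low share over all genes. In either fraction the KO was 2-fold or more higher for 1 marker and lower for 1 marker of the endoderm list and of the trophoblast list, and the neuroectoderm list had 2 of 5 higher in Flk1+ and 1 of 5 higher in Flk1- cells. The part of cell composition in the differences of the stem cell-restricted genes was not tested.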

How the data were processed

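The authors deposited log2 values of 45141 probe sets on 4 arrays, for which the submitters' processing notes name RMA and limma without version or role. They were used as deposited. The 104 control probe sets were left out, and of the others 28898 were paired with 1 gene by the platform annotation, 551 with several and 15588 with none. Each gene was read from its probe set of highest mean. Groups of 1 array have no replicate spread, and no test was run, since an additive fit of genotype and fraction would take their interaction as its error. The number of arrays limits the precision. A gene was counted at a log2 difference of 1 or more with a value above the floor on at least 1 of the 2 arrays. The listed genes, gene lists and rules for named genes (all listed genes, up to 4 per list by summed genotype difference, and the nearest profiles) were chosen with earlier results of these data known. The 10 alternatives covered normalization (quantile again, centring, cyclic loess with span 0.3 and 3 rounds in limma 3.58.1), the floor, the choice of probe set and the size rule. Values were computed with Python 3.11.15 and pandas 2.3.3.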

Additional observations from a re-analysis of the deposited data

How the results depend on the processing

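Of the 10 alternatives, 6 can move the value of a single gene, and under these the 31 differences of at least 1 in size gave 177 repeats, of which 0 changed sign and 3 had a size under 1 (Dppa2 at 0.55 in Flk1+ cells at the floor and 0.85 in Flk1- cells as a mean of probe sets, and the Fbxo15 difference of differences at -0.99 after centring). Repeats without a value or without signal were not counted. These were Eras and Dppa2 without probe sets of the suffixed types, and Dppa2 in Flk1+ cells as a mean of probe sets. All repeats reuse the same arrays, and the floor fixed the direction of some sort differences, so a change of sign was hardly possible there. The median genotype difference ranged from 1.53 to 1.66 in Flk1+ cells. In Flk1- cells it was 0.74 without probe sets ending in _s_at, _a_at or _x_at, which leave Eras without a value and Dppa2 below the floor, and the count of genes 2-fold higher was then 2. That count was 9 with a 1.5-fold rule and 0 with a 3-fold rule, and in Flk1+ cells the 3-fold rule left 3. The median sort difference was -2.27 in F/F cells with values set to the floor, and -2.15 in KO cells when probe sets were averaged per gene. The median difference of differences ranged from 0.43 to 0.67. No paired analysis was possible because each group held 1 array. Signal near or below the floor limits Dppa2, Dppa3, Fbxo15, Mageb16, Tcl1 and, in F/F Flk1+ cells, L1td1.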

Other observations

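Genes of germ cells and of the 2-cell embryo, in which several of the listed genes are also known to act, had little signal. Of 23 germ cell genes 18 were on the array, and 5 in Flk1+ and 7 in Flk1- cells were above the floor. In either fraction 0 of them were 2-fold apart by genotype, with Tfap2c just under the rule at 0.96 in Flk1- cells. Over all genes 0.873% were higher and 0.976% lower in Flk1+ cells, and 0.389% higher and 0.949% lower in Flk1- cells. The list is too short to differ from such low shares. Tfap2c, a transcription factor gene of germ cells and trophoblast, was at 3.50 in KO Flk1+ and 3.40 in F/F Flk1+ cells, and at 6.11 in KO Flk1- and 5.15 in F/F Flk1- cells. Tdrd12, a piRNA pathway gene, was at 2.76 in KO Flk1+ and 2.52 in F/F Flk1+ cells, both below the floor, and at 4.93 in KO Flk1- and 4.43 in F/F Flk1- cells. Prdm1, a repressor needed for germ cell fate, differed by 0.62 in Flk1+ and 0.08 in Flk1- cells. Of 13 genes of the 2-cell embryo that Dppa2 and Dppa4 are known to regulate, 4 were on the array and 0 were above the floor. Tcl1b1, a relative of Tcl1 chosen once its values were known, was at 5.84 in KO Flk1+ and 5.87 in F/F Flk1+ cells, and at 5.49 in KO Flk1- and 5.59 in F/F Flk1- cells.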
